A study of Mus musculus with 12 samples.

Results

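The muscle splicing regulators are 10 genes for RNA-binding proteins that choose exons in skeletal muscle: Mbnl1, Mbnl2, Mbnl3, Celf1, Celf2, Rbfox1, Rbfox2, Rbm20, Rbm24 and Ptbp1. They were chosen by gene symbol, and all 10 were found among the 24421 entries of the count table. Transcripts were counted per gene in a hindlimb muscle, the tibialis anterior, of 12 male mice aged 4 months. The groups were 6 C57Bl/6 mice (WT) and 6 mdx/mTR mice. The mdx allele disrupts Dmd, the dystrophin gene, and mTR names the RNA component of mouse telomerase. The labels do not give the telomerase generation, the breeding background or whether the WT mice were littermates.

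Alternative splicing lets a muscle gene make different proteins in the fetus, the adult and the regenerating fibre. MBNL proteins promote many adult exon choices, CELF proteins often act against them on the same transcripts, and loss of free MBNL underlies the splicing faults of myotonic dystrophy. RBFOX proteins bind UGCAUG beside exons, RBM20 controls the exons of titin, RBM24 promotes muscle exons, and PTBP1 represses many of them in precursor and non-muscle cells. A count per gene measures the summed transcripts of a gene and not which exons were used, so splicing itself was not measured here.

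Library totals ran from 36903560 to 40981012 counts for WT and from 35136327 to 60330410 counts for mdx/mTR mice. Levels are given as CPM, the usual per-library count rate of a gene, after scaling by the trimmed mean of M-values (TMM). Dmd ranged from 228 to 244 CPM for WT and from 35.2 to 56.4 CPM for mdx/mTR mice, without overlap, with a log2 fold change of -2.34 ± 0.09 (SE; edgeR quasi-likelihood test, adjusted p 8.3e-10). Terc, the telomerase RNA gene, had 2 counts in all libraries together, so that part of the genotype could not be checked. The skeletal fibre markers (Acta1, Ckm, Mb, Casq1, Pvalb, Mylpf, Actn3 and Tnnc2) summed to 80376 to 90706 CPM for WT mice and 71104 to 98548 CPM for mdx/mTR mice, so the labelled tissue was present in every library. Nothing in the labels says more about how the mice of a group were related than that they carry separate numbers, and the p-values measure the spread between these mice.

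Of the 10 regulators, 2 were higher and 4 were lower in mdx/mTR at an adjusted p under 0.05 (edgeR quasi-likelihood test with Benjamini-Hochberg adjustment over 13937 genes). Over all genes tested, 48.3% were called, 25.0% higher and 23.4% lower, so a count of this size is near the background of the comparison. Rbfox2 and Ptbp1 rose, while Mbnl1, Mbnl2, Celf1 and Rbfox1 fell. Rbfox2 had the largest change, to 141% of its WT mean, and the 4 that fell were at 81.0% to 85.5% of WT. Rbm20, Rbm24, Celf2 and Mbnl3 did not pass the test. The median log2 fold change was -0.16 over the 10 genes and 0.01 over all genes tested. In 3 of the 10 the groups did not overlap (1 higher and 2 lower), against 25.2% of all genes tested (12.6% higher and 12.6% lower).

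**Figure D1:**
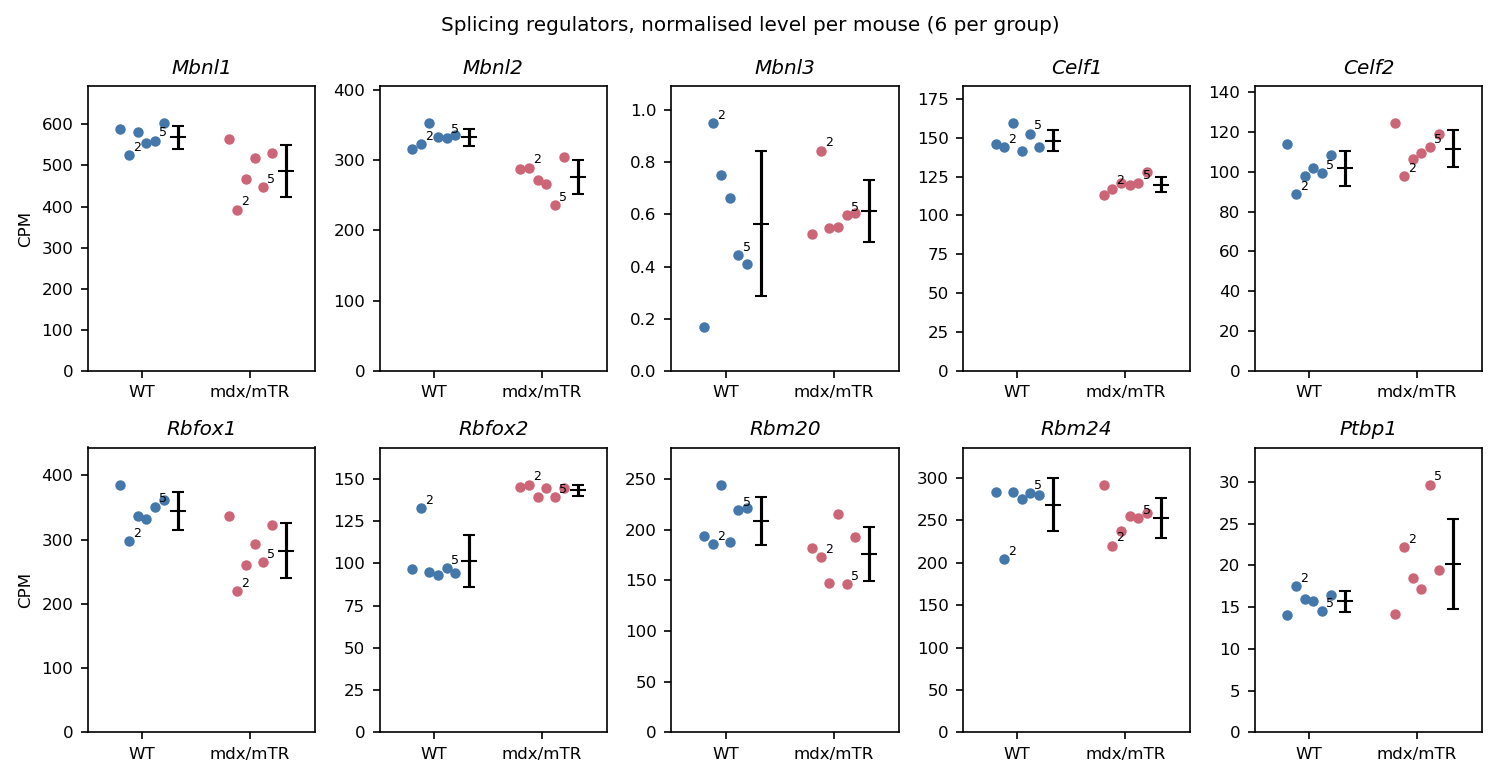
Normalised level (CPM, linear axis from 0) of each of the 10 splicing regulators in every mouse, WT in blue and mdx/mTR in red, with the mean and SD of 6 mice beside the points. The numbers 2 and 5 mark those replicates: the groups are apart for Mbnl2, Celf1 and Rbfox2, and WT replicate 2 stands near the mdx/mTR mice for Rbfox2.

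The sizes of these changes depended on the scaling between libraries. The TMM factors ran from 0.929 to 0.971 for WT and from 0.988 to 1.16 for mdx/mTR mice, without overlap. With library totals alone the median over all genes tested was a log2 fold change of 0.17 in place of 0.01, and 40.2% of genes were called higher and 11.2% lower. Under that scaling 3 regulators were higher and 2 lower. Rbfox2 (0.65, adjusted p 6.5e-05) and Ptbp1 (0.53, adjusted p 0.0185) stayed higher and Celf2 passed as well (0.29, adjusted p 0.0020). Celf1 (-0.15, adjusted p 0.0240) and Mbnl2 (-0.11, adjusted p 0.0493) stayed lower, while Mbnl1 (-0.08, adjusted p 0.324) and Rbfox1 (-0.13, adjusted p 0.179) did not pass. The directions below are those of the TMM scaling, and among the 10 regulators only Rbm24 changed sign with library totals alone (from -0.09 to 0.07).

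**Figure D2:**
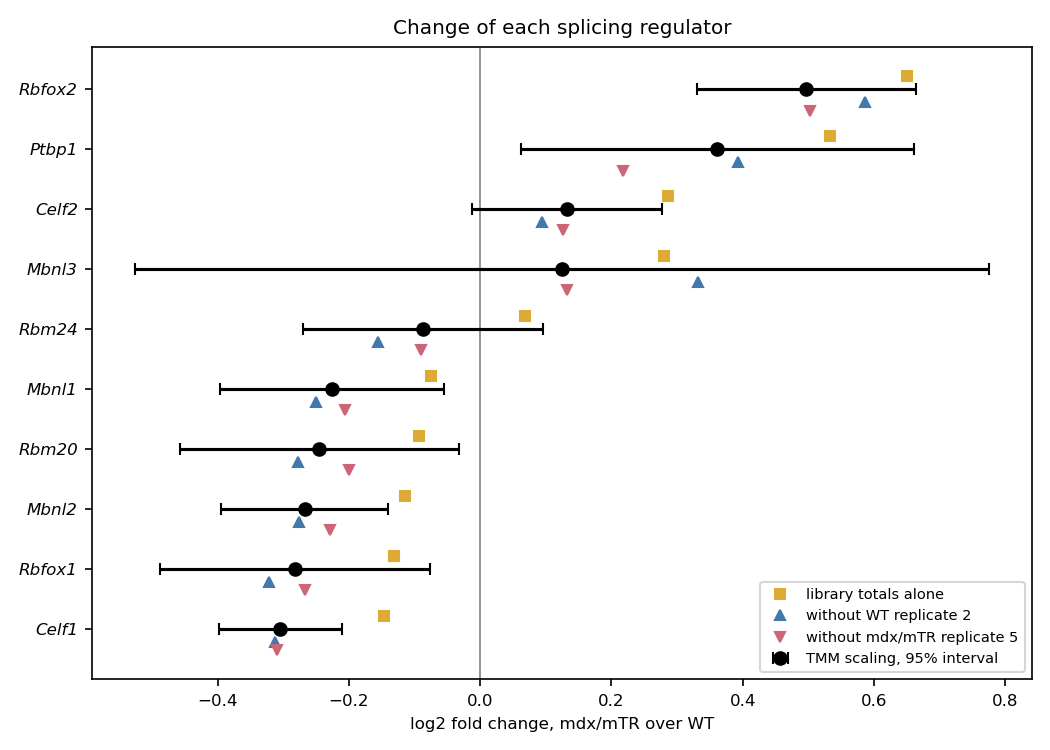
Log2 fold change (mdx/mTR over WT) of each regulator with its 95% interval from edgeR (black), with library totals alone (yellow squares), without WT replicate 2 (blue triangles) and without mdx/mTR replicate 5 (red triangles). Rbfox2 lies to the right of 0 and Celf1 and Mbnl2 to the left under all 4, whereas Rbm24 crosses 0 with library totals alone.

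Sequence upstream of the start sites was examined for the 4 regulators that fell. RefSeq (GRCm38.p6) promoters were matched by symbol for 8 of the 10 regulators, all but Rbfox2 and Rbm20. The 250 bases before a start were searched on both strands, counting overlapping matches separately, for the GC box GGGCGG, the E-box CANNTG and the MEF2 core, which is CTA and TAG with 4 letters of any kind between them. These letters occur in 32.7%, 66.2% and 3.20% of 32851 such windows. In these windows the GC box was present before Celf1 (4 matches), before Mbnl2 (1 match) and before the second Mbnl1 start (4 matches), and it was not found before the other Mbnl1 start or the 2 Rbfox1 starts. It was also present before 2 of the 5 Celf2 starts (1 and 3 matches), a gene that did not pass the test. The windows of the genes that fell and held a match are shown, plus strand, 5′ to 3′, with GC boxes of either strand in capitals. They lie at chr2:90940147-90940396, chr14:120275419-120275668 and chr3:60500929-60501178.
Celf1: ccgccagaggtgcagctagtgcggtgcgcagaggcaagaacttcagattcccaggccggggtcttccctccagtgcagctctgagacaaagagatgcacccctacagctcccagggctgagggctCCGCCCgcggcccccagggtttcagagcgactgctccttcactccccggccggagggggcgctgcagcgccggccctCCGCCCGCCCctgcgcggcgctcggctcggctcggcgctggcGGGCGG
Mbnl2: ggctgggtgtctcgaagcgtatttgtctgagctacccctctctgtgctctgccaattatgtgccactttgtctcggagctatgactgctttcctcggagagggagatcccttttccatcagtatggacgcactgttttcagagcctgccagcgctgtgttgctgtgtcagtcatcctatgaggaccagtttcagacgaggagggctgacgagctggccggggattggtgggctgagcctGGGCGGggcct
Mbnl1: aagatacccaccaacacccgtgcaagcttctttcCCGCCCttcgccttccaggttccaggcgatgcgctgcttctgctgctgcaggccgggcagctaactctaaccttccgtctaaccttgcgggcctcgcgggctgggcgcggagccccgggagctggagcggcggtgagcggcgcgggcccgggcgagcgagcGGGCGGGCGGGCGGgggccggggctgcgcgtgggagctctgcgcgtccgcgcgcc

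A match is a description of letters and says nothing of a factor, and the counts do not show which start was used. The E-box was found before Ptbp1 (2 matches), which rose, before Rbm24 (2 matches), before 4 of the 5 Celf2 starts (1 or 2 matches), before 1 of the 2 Rbfox1 starts (2 matches) and before the first Mbnl1 start (1 match). The Celf2 windows at chr2:7396199-7396448 and chr2:7396001-7396250 overlap and hold the same 2 matches. None of the 14 windows of the regulators held the MEF2 core letters.

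The muscleblind genes were examined first. Mbnl1, whose protein is the main muscleblind of adult muscle, lies at chr3:60472830-60629750 (GRCm38, plus strand). Its level was 525 at the lowest, 571 at the median and 603 CPM at the highest in WT, and 393, 492 and 565 CPM in mdx/mTR. All 6 mdx/mTR mice lay below the WT median, but 2 of them were inside the WT range. The mean of Mbnl1 was 569 ± 28.2 CPM for WT and 487 ± 62.9 CPM for mdx/mTR mice (SD, n = 6 per group), a log2 fold change of -0.23 ± 0.08 (SE; edgeR adjusted p 0.0308). The call was lost when any of 6 single mice was left out, with adjusted p up to 0.0637, and in those fits the log2 fold change ran from -0.22 to -0.17.

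Mbnl2 (chr14:120275669-120431697, plus strand), which shares targets with Mbnl1 and is prominent in brain, had 316, 332 and 352 CPM in WT as lowest, median and highest. In mdx/mTR it had 236, 280 and 304 CPM. The groups did not overlap, and mdx/mTR replicate 5 was the lowest. Its log2 fold change was -0.27 ± 0.06 (SE; edgeR adjusted p 0.0022), and it passed under every one of the 19 alternatives run.

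Mbnl3 (chrX:51117269-51206532, minus strand), the muscleblind of muscle precursors and placenta, was the lowest of the 10 regulators. It had 6 to 55 counts per library, which is 0.167, 0.554 and 0.949 CPM as lowest, median and highest for WT mice and 0.523, 0.574 and 0.844 CPM for mdx/mTR mice. All 6 mdx/mTR values lay inside the WT range. The log2 fold change was 0.13 with a 95% interval from -0.53 to 0.78 (edgeR adjusted p 0.755), so a change of any size within that interval remains possible. Without WT replicate 1, which had 6 counts against 15 to 55 in the other libraries, its log2 fold change was -0.06.

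Of the CELF genes, Celf1 fell and Celf2 did not pass the test. Celf1 (chr2:90940382-91019497, plus strand) encodes the CELF protein whose excess drives fetal splicing in myotonic dystrophy. Its WT levels were 141, 145 and 159 CPM as lowest, median and highest, and its mdx/mTR levels were 113, 120 and 128 CPM. Every mdx/mTR mouse was below every WT mouse. Celf1 fell by 0.30 on the log2 scale (SE 0.04; edgeR adjusted p 9.5e-05), from 148 ± 6.75 to 120 ± 4.86 CPM (SD, n = 6 per group). It had the smallest p of the 10 and passed under every one of the 19 alternatives, in which the fall ran from -0.32 to -0.15.

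Celf2 (chr2:6539694-7509563, minus strand), a related regulator found in muscle, brain and leukocytes, ran through 89.0, 101 and 114 CPM for WT mice and 97.8, 111 and 124 CPM for mdx/mTR mice. The groups overlapped, with 5 of 6 mdx/mTR mice above the WT median. Its log2 fold change was 0.13 with a 95% interval from -0.01 to 0.28 (edgeR adjusted p 0.122). It passed in 3 of the 19 alternatives: with library totals alone, without mdx/mTR replicate 2 (0.17, adjusted p 0.0481), and with a replicate block (0.13, adjusted p 0.0255).

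The RBFOX genes moved in opposite directions. Rbfox1 (chr16:5885355-7411526, plus strand), the form most specific to muscle, heart and neurons, had 297, 344 and 386 CPM in WT. In mdx/mTR it had 220, 279 and 337 CPM. All 6 mdx/mTR mice were below the WT median and 2 of them were inside the WT range. The log2 fold change was -0.28 ± 0.10 (SE; edgeR adjusted p 0.0255). The call was lost in 3 of the 12 fits that left out a mouse (without WT replicate 1 or 6 or mdx/mTR replicate 3), with adjusted p up to 0.0586, and with library totals alone, as given above.

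Rbfox2 (chr15:77078990-77307004, minus strand), the more widely expressed form that is also present in precursors and non-muscle cells, had 92.8, 95.9 and 132 CPM in WT. In mdx/mTR it had 139, 145 and 146 CPM. The 6 mdx/mTR mice were within a narrow band, with a coefficient of variation of 2.25%, and all lay above all WT mice. The mean of Rbfox2 was 101 ± 15.3 CPM for WT and 143 ± 3.22 CPM for mdx/mTR mice (SD, n = 6 per group). Its log2 fold change was 0.50 ± 0.08 (SE; edgeR adjusted p 1.8e-04). WT replicate 2 held the highest WT value, and the other WT mice had 92.8 to 97.2 CPM. Without it the log2 fold change was 0.59 ± 0.04 (adjusted p 3.7e-07).

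In the authors' deposited table, Rbfox2 has a log2 fold change of 0.48 but no p-value, and it is 1 of 49 genes there with a fold change and no p. The reason is not given in the sources used here. DESeq2 run on the deposited counts gave Rbfox2 a log2 fold change of 0.49 with an adjusted p of 8.3e-08. For the other regulators the authors' deposited table calls Celf1, Mbnl2, Mbnl1, Rbfox1 and Rbm20 lower and Ptbp1 higher, in a table where 50.1% of genes with an adjusted p are called and 24.7% are called lower.

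The RBM genes showed smaller or less certain differences. Rbm20 (chr19:53677306-53867080, plus strand), the titin splicing repressor, ran through 186, 207 and 244 CPM for WT mice and 146, 177 and 215 CPM for mdx/mTR mice. The ranges overlapped, with 5 of 6 mdx/mTR mice below the WT median. Its log2 fold change was -0.24 with a 95% interval from -0.46 to -0.03, and the adjusted p of edgeR was 0.0550. It was called in 5 of the 19 alternatives, among them DESeq2 (-0.25, adjusted p 0.0447) and limma-voom (-0.26, adjusted p 0.0486). The authors' deposited table gives -0.25 with an adjusted p of 0.0383.

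Rbm24 (chr13:46418434-46431095, plus strand) encodes a promoter of muscle exon inclusion. Its WT levels were 204, 281 and 284 CPM, and its mdx/mTR levels were 220, 254 and 292 CPM. The WT mice other than replicate 2 lay between 275 and 284 CPM. Its log2 fold change was -0.09 with a 95% interval from -0.27 to 0.10 (edgeR adjusted p 0.425), and without WT replicate 2 it was -0.16 (adjusted p 0.0566).

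Ptbp1 (chr10:79854427-79864771, plus strand), the repressor of muscle exons that declines as muscle differentiates, was the lowest of the 10 apart from Mbnl3. Its WT levels were 14.0, 15.9 and 17.5 CPM, and its mdx/mTR levels were 14.2, 19.0 and 29.7 CPM. The groups overlapped at their lower ends, and mdx/mTR replicates 5 (29.7 CPM) and 2 (22.1 CPM) were the highest. The mean of Ptbp1 was 15.7 ± 1.27 CPM for WT and 20.2 ± 5.34 CPM for mdx/mTR mice (SD, n = 6 per group), a log2 fold change of 0.36 ± 0.14 (SE; edgeR adjusted p 0.0455). Without mdx/mTR replicate 5 it was 0.22 (adjusted p 0.0887), and the call was lost in 9 of the 12 fits that left out a mouse. In GENCODE M21, 26.4% of the exon bases of Ptbp1 lie opposite exons of other genes and 7.02% of the 50-base stretches of its longest coding transcript occur in other genes. How strand was handled in the counting is not given in the sources used here, so the level of Ptbp1 is uncertain. For each of the other 9 regulators these shares were at most 2.02% and 0%.

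Markers of other cells also differed between the groups. In bulk tissue, fewer cells of a type and less RNA per cell cannot be told apart. Of 7 myogenic precursor and new-fibre markers, 6 were higher in mdx/mTR and none lower, and their sum was 32.7 to 44.6 CPM for WT and 113 to 509 CPM for mdx/mTR mice. Of 7 leukocyte markers, 6 were tested and all 6 were higher, with sums of 60.4 to 109 and 193 to 573 CPM. Of 6 fibroblast markers, 5 were higher, with sums of 874 to 1598 and 2202 to 4409 CPM. No marker of these 3 lists was at 0 in all libraries, and the T cell gene Cd3e was too low to be tested. The mdx/mTR mice with the highest Ptbp1 also had the highest sums: replicates 5 and 2 had 509 and 251 CPM of precursor markers against 113 to 150 CPM in the other 4. They had 573 and 383 CPM of leukocyte markers against 193 to 345 CPM. Rbfox2 did not follow these sums: replicate 5 had the lowest value of the mdx/mTR mice (139 CPM) and replicate 2 the highest (146 CPM). The part of these markers in the results was not tested.

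Schwann cell markers went the other way, and vessel markers did so in part. All 4 Schwann cell markers were lower, with sums of 41.1 to 52.7 CPM for WT and 21.8 to 33.6 CPM for mdx/mTR mice. Of 5 endothelial markers 3 were lower, with sums of 402 to 536 and 320 to 426 CPM that overlapped. Of 5 mural markers 3 were lower and 1 higher, with sums of 251 to 361 and 259 to 282 CPM. All mural sums of mdx/mTR mice lay inside the WT range. Over all genes tested, 25.0% were higher and 23.4% lower. The 3 adipocyte markers did not pass the test (6.56 to 10.6 and 4.58 to 15.2 CPM). Of the 8 fibre markers, 2 were higher and 2 lower. None of these markers was at 0 in all libraries, and their part in the results was not tested.

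Ratios of 2 regulators within a library do not depend on the scaling between libraries. Of 6 ratios tested with two-sided exact permutation tests, those of Celf2 to Celf1 and of Rbfox2 to Rbfox1 passed. The ratios use the same counts as the single-gene results above and are not separate support for them. Celf2 counts were 61.5%, 68.5% and 78.4% of Celf1 counts in WT as lowest, median and highest, and 83.4%, 92.4% and 110% in mdx/mTR. The groups did not overlap, and the log2 ratio was 0.44 higher in mdx/mTR (exact permutation p 0.0022, the smallest this design allows; adjusted over the 6 ratios 0.0130). Rbfox2 counts were 25.1%, 27.8% and 44.6% of Rbfox1 counts among WT mice and 43.0%, 50.8% and 66.6% among mdx/mTR mice. The log2 ratio was 0.80 higher (exact permutation p 0.0043, adjusted 0.0130), and only WT replicate 2 reached into the mdx/mTR range. Both ratios passed in each of the 12 repeats that left out a mouse, with differences of 0.39 to 0.47 and 0.72 to 0.92.

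The ratios against Mbnl1 gave no such separation. Mbnl2 counts were 53.6% to 61.6% of Mbnl1 counts among WT mice and 50.9% to 73.6% among mdx/mTR mice, a log2 difference of -0.04 (exact permutation p 0.721, adjusted 0.721). Celf1 counts were 23.9% to 27.5% and 19.96% to 29.9% of Mbnl1 counts, a difference of -0.07 (exact permutation p 0.481, adjusted 0.577). The highest Celf1 and Mbnl2 ratios were both those of mdx/mTR replicate 2, which had the lowest Mbnl1. The Mbnl3 to Mbnl1 ratio differed by 0.50 (exact permutation p 0.264, adjusted 0.396) and the Rbm24 to Rbm20 ratio by 0.17 (exact permutation p 0.156, adjusted 0.312). The lowest Mbnl3 ratio was that of WT replicate 1, and the groups overlapped in each of these 4 ratios.

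**Figure D3:**
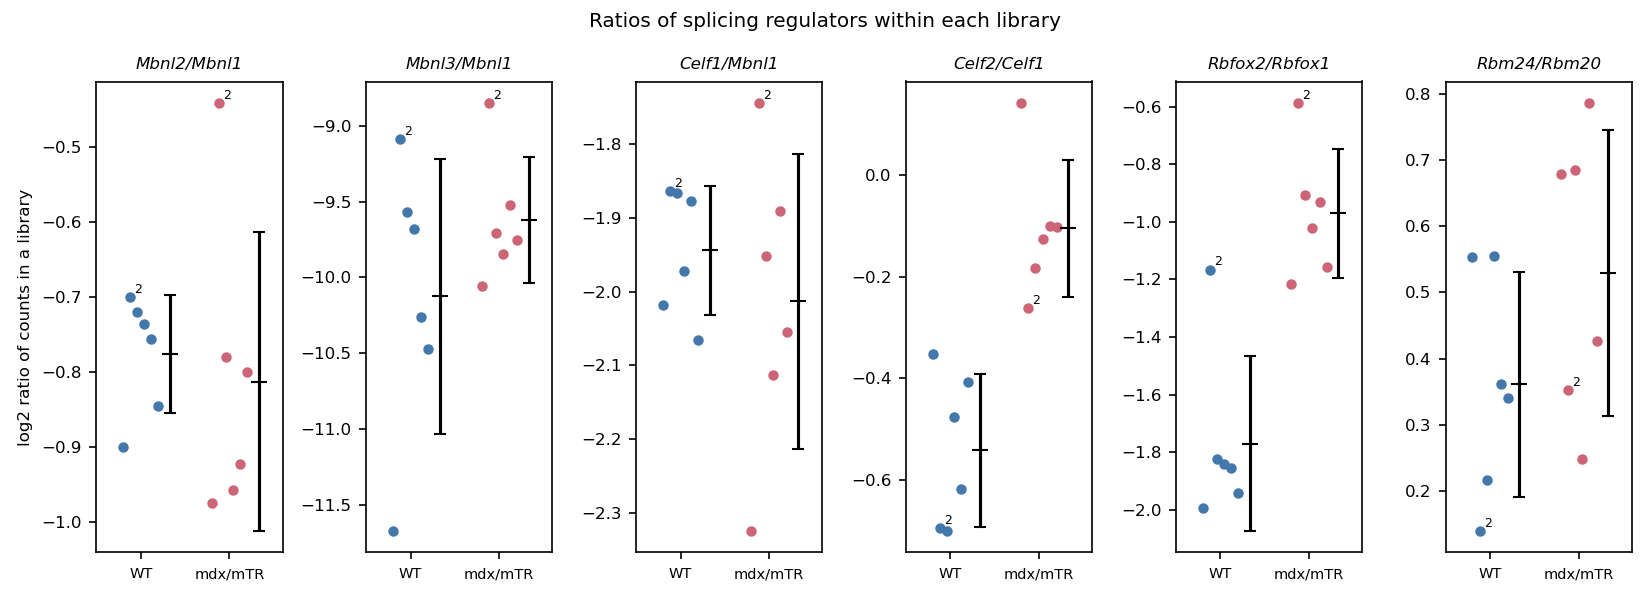
Log2 ratio of the counts of 2 regulators in each library (6 WT in blue, 6 mdx/mTR in red) with the mean and SD of each group, each panel on its own axis. The number 2 marks that replicate: the groups are apart for Celf2/Celf1, and for Rbfox2/Rbfox1 WT replicate 2 alone lies among the mdx/mTR mice.

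Levels of different genes were compared per kilobase of exon, as CPM per kilobase of merged coding-transcript exons in GENCODE M21. In WT the order was Rbfox1 (99.0 ± 8.59), Mbnl1 (98.0 ± 4.86), Rbm24 (86.9 ± 10.2), Mbnl2 (70.0 ± 2.61), Rbm20 (42.6 ± 4.79), Celf1 (18.3 ± 0.833), Rbfox2 (14.0 ± 2.12), Celf2 (10.5 ± 0.899), Ptbp1 (4.55 ± 0.367) and Mbnl3 (0.108 ± 0.0535; SD, n = 6). The ranges of Rbfox1, Mbnl1 and Rbm24 overlapped, the range of Mbnl2 (66.6 to 74.3) lay inside that of Rbm24 (66.3 to 92.0), and Celf1 and Rbfox2 overlapped (17.5 to 19.7 and 12.8 to 18.3 CPM per kilobase). In mdx/mTR, Rbfox2 (19.2 to 20.3 CPM per kilobase) stood above Celf1 (13.9 to 15.8) without overlap. The top 3 overlapped again and Mbnl2 (49.7 to 64.2) reached into the range of Rbfox1 (63.3 to 96.9), and their order in mdx/mTR differed between merged exons and the longest coding transcript. Per kilobase, Rbfox2 made up 10.8%, 11.8% and 17.6% of the sum of Rbfox1 and Rbfox2 in WT and 17.1%, 19.6% and 24.2% in mdx/mTR. Mbnl3 was at most 0.126% of the muscleblind sum in any library.

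The mice of a group differed among themselves. The mouse farthest from the WT median was replicate 2 for 4 regulators and replicates 1 and 3 for 3 each. WT replicate 2 was the WT mouse farthest from the WT median for Rbfox2, Rbm24, Rbfox1 and Mbnl1, at 0.46, -0.46, -0.21 and -0.12 on the log2 scale. It also had the highest fibroblast (1598 CPM), endothelial (536 CPM), mural (361 CPM) and Schwann cell (52.7 CPM) sums of the WT mice. The other WT mice reached 1530, 447, 357 and 50.5 CPM. WT replicate 4, which had the fibroblast sum of 1530 CPM, had the lowest WT Rbfox2 (92.8 CPM). The part of these markers was not tested. Among mdx/mTR mice, replicate 2 was farthest from the median for Mbnl1, Rbfox1, Celf2, Rbm24 and Mbnl3, and replicate 5 for Mbnl2, Rbfox2, Rbm20 and Ptbp1. When both WT replicate 2 and mdx/mTR replicate 5 were left out, Mbnl1, Mbnl2, Celf1 and Rbfox1 were called lower and Rbfox2 higher, while Ptbp1 did not pass (0.25, adjusted p 0.0638).

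**Figure D4:**
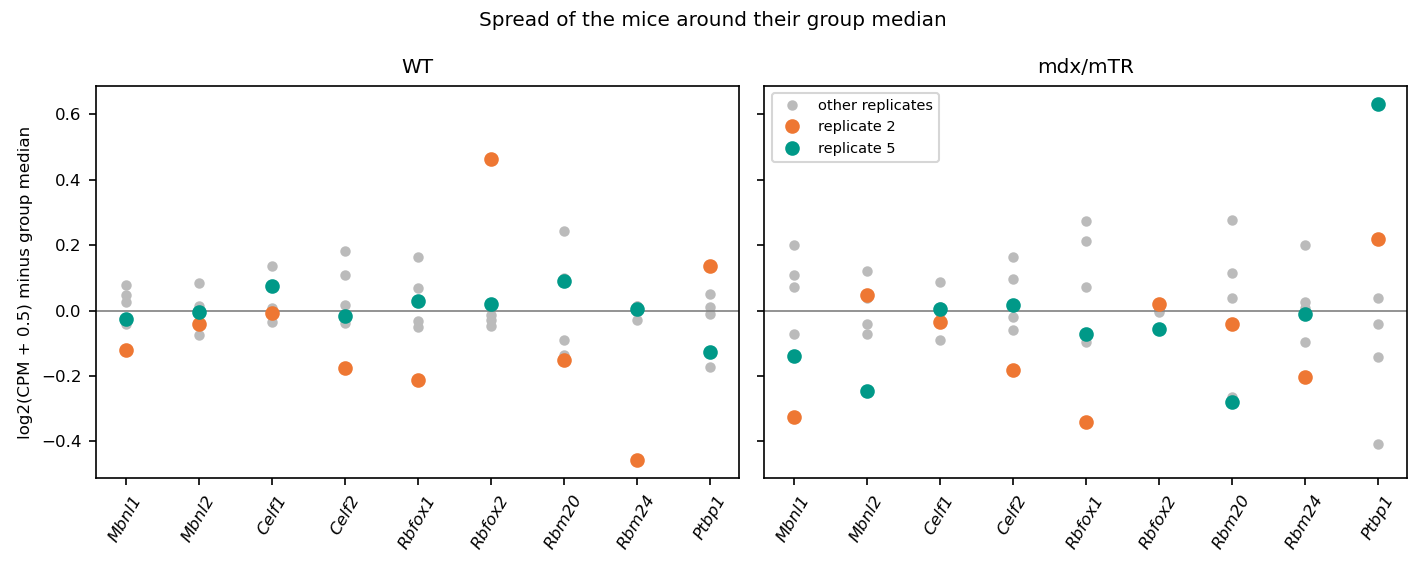
Deviation of each mouse from its group's median, as log2(CPM + 0.5), for 9 regulators (Mbnl3, with 6 to 55 counts, is left out), with replicates 2 and 5 coloured and the others grey. WT replicate 2 is apart for Rbfox2 (0.46) and Rbm24 (-0.46), and mdx/mTR replicate 5 for Ptbp1 (0.63).

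Other genes of the splicing machinery were read from the same fit, with lists chosen by family, and their counts stand beside 48.3% of all genes called, 25.0% higher and 23.4% lower. Of 8 paralogs of the regulators, 5 were tested, 2 were higher and 1 lower, with a median log2 fold change of 0.48. The 5 went both ways, from -0.45 to 0.72. The highest were Celf4 (0.72) and Celf3 (0.54, edgeR adjusted p 0.128, with 0.487 and 0.703 CPM), the lowest expressed of the 5. Rbm38, the close relative of Rbm24, fell from 178 ± 13.6 to 131 ± 17.0 CPM (-0.45 ± 0.08 SE; edgeR adjusted p 7.5e-04), without overlap. Ptbp3, a PTB protein of blood cells among others, rose from 24.1 ± 2.54 to 33.8 ± 6.50 CPM (0.48 ± 0.11; edgeR adjusted p 0.0028), also without overlap. Celf3 and Celf4 were named after their values were seen. Celf4 had 0.348 and 0.579 CPM and an edgeR adjusted p of 0.0490. Under 12 of the 19 alternatives 1 paralog rather than 2 was higher. Ptbp2, the neuronal PTB, had 24.5 and 24.2 CPM (-0.02 ± 0.06; edgeR adjusted p 0.799). Celf5, Celf6 and Rbfox3 were too low to be tested.

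Of 24 other RNA-binding regulators, 22 were tested, 2 were higher and 4 lower, with a median of -0.04. With library totals alone 11 were higher and 2 lower. Raver2, whose protein binds PTB, fell from 10.3 ± 2.19 to 3.71 ± 0.969 CPM (-1.47 ± 0.18; edgeR adjusted p 2.4e-05). Qk, the quaking gene that controls muscle exons, fell from 374 ± 20.04 to 275 ± 15.1 CPM (-0.44 ± 0.05; edgeR adjusted p 1.9e-05). Both fell without overlap between groups. Ddx17, an RNA helicase, and Matr3, a nuclear matrix RNA-binding protein, rose by 0.21 ± 0.05 (adjusted p 0.0034) and 0.20 ± 0.04 (adjusted p 6.4e-04) in edgeR.

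General splicing factors were read next. Of 21 hnRNP and poly(C)-binding protein genes, 1 was higher and 5 lower, with a median of -0.04, where 25.0% of all genes tested were higher and 23.4% lower. Whether the list differs from other genes was not tested. Hnrnpa0 rose (0.32 ± 0.07; edgeR adjusted p 0.0022), and Hnrnpdl (-0.27 ± 0.05; adjusted p 0.0011) and Pcbp4 (-0.24 ± 0.05; adjusted p 0.0018) were the largest falls. With library totals alone 8 were higher and 0 lower. Of 20 SR protein and kinase genes, 19 were tested, 2 were higher and 2 lower, with a median of 0.02. The calls were Srsf9 (0.22, edgeR adjusted p 0.0369), Srsf11 (0.13, 0.0359), Srsf7 (-0.15, 0.0352) and Clk3 (-0.14, 0.0436). They held in 3, 4, 6 and 4 of the 12 fits that left out a mouse. Srsf9 and Srsf11 were also lost with no filter on low counts and with a replicate block. Clk3 was also lost with no filter on low counts (edgeR adjusted p 0.0554). With library totals alone 9 were higher and 0 lower, and Srsf7 and Clk3 changed sign to 0.01.

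Total transcripts of known targets were read as well. Of 21 genes whose exons these regulators are known to choose, 20 were tested, 3 were higher and 8 lower, with a median of -0.18, and 8 had groups that did not overlap. That is 11 of 20 called, near the 48.3% of all genes tested, of which 25.2% did not overlap. With library totals alone 6 were higher and 4 lower, with a median of -0.03. Tnnt2, the cardiac and fetal troponin T gene, rose from 2.36 ± 0.457 to 18.4 ± 13.4 CPM (2.96 ± 0.37; edgeR adjusted p 3.1e-05). Actn1, the non-muscle alpha-actinin gene, rose from 12.5 ± 1.24 to 20.3 ± 4.11 CPM (0.70 ± 0.12; edgeR adjusted p 2.6e-04). Both rose beside the precursor and fibroblast markers given above, whose part was not tested. Ryr1, the calcium release channel gene, fell from 7862 ± 458 to 5493 ± 858 CPM (-0.52 ± 0.10; edgeR adjusted p 0.0011). Clcn1, the chloride channel gene whose missplicing causes myotonia, fell from 243 ± 16.1 to 178 ± 26.0 CPM (-0.45 ± 0.09; edgeR adjusted p 8.8e-04). Ttn, the target of RBM20, had 18549 and 15866 CPM (-0.23 ± 0.09; edgeR adjusted p 0.0438). It was named after its values were seen. These are changes in total transcripts, not in exon use.

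**Figure D5:**
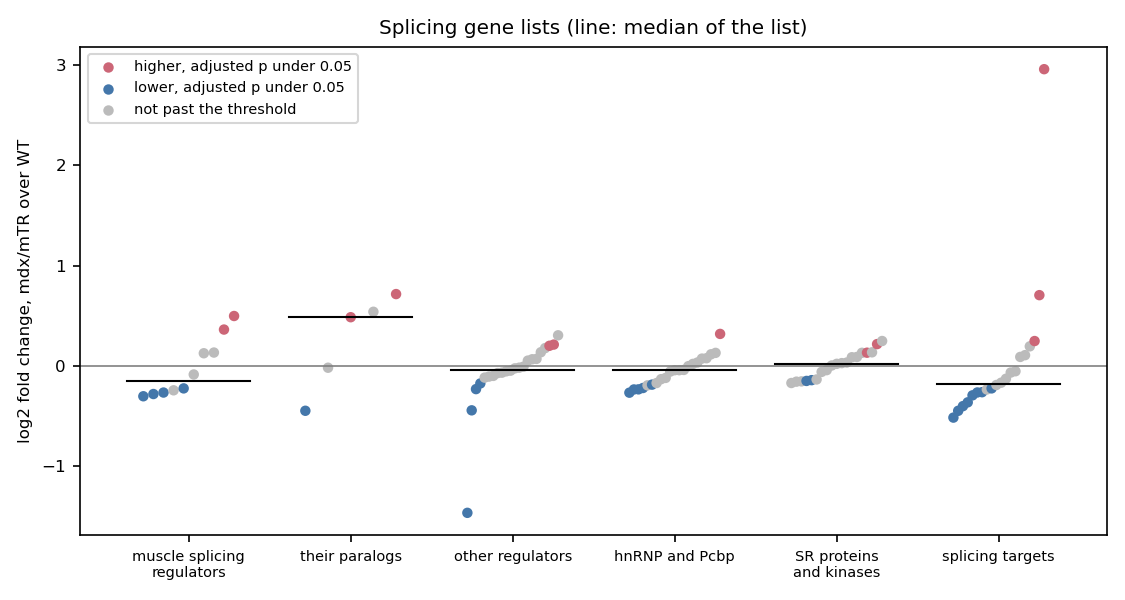
Log2 fold change (mdx/mTR over WT) of every tested gene in the 10 regulators and 5 other splicing lists, red where higher and blue where lower at an edgeR adjusted p under 0.05 and grey otherwise, with the list's median as a line. Most hnRNP and SR genes lie near 0, while Raver2 (-1.47) and Tnnt2 (2.96) are the points farthest from it.

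The genes with the nearest pattern were sought for Rbfox2, Ptbp1 and Celf1, the regulators with the largest changes past the threshold. Nearness was the smallest root mean square difference over the 12 libraries in log2(CPM + 0.5), each gene centred on its WT mean. Nearest to Rbfox2 were Mettl21a (difference 0.08; log2 fold change 0.47) and Stard13 (0.09; 0.50). Nearest to Ptbp1 were Rrbp1 (0.07; 0.36) and Elovl6 (0.08; 0.51, which did not pass, adjusted p 0.0892 in edgeR). Nearest to Celf1 were Jak1 (0.04; -0.32) and Abl2 (0.05; -0.33). The measure describes likeness of level over these mice.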

How the data were processed

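The authors deposited whole-number counts per gene symbol, 1 column per mouse. The submitters' processing notes name FastQC, STAR, DESeq2 and mm10. The counter, annotation, versions and strand handling are not given in the sources used here. A second deposited table gives the authors' comparison as a mean normalized signal, log2 fold change, its error, test score and p-values, per the file headers.

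The deposited counts entered edgeR 4.0.16 (R 4.3.3) with filterByExpr (13937 of 24421 entries, 99.97% of counts), TMM, and a quasi-likelihood model with group as its only term. An SE is the log2 fold change over the root of its F. Benjamini-Hochberg adjusted p-values under 0.05 were called, and intervals are at 95%. The log2 ratio of 2 regulators used counts plus 0.5 and a two-sided exact permutation test (scipy 1.17.1), adjusted over 6 ratios. The members and lists were chosen with earlier results of these data known. From each other splicing list the text names the 2 largest rises and 2 largest falls past the threshold with a mean of at least 5 CPM.

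Library totals of 35136327 to 60330410 counts put 3 counts, the limit that a count of 0 allows, under 0.1 CPM; this covers counting error only. No 2 mice of a group agreed within sampling noise (chi-square per degree of freedom at least 9.10). Counts were simulated for the 13937 genes of the mdx/mTR against WT comparison, with 100 genes changed at each size. On these, edgeR recovered 64% of genes changed by 0.5 on the log2 scale and 88% of those changed by 1, with 8 false calls. DESeq2 1.42.0 recovered 74% and 90% with 24. Far fewer genes were changed than the 48.3% called in the data. No shift in scaling between groups was simulated, so these rates need not hold for the data. Alternatives were other scalings, no filter on low counts, DESeq2, limma-voom (limma 3.58.1), a replicate block and each mouse left out. Leaving out both WT replicate 2 and mdx/mTR replicate 5 was chosen after seeing the data. Positions, lengths and overlaps came from GENCODE M21 (GRCm38, the build mm10 names) and promoters from RefSeq GRCm38.p6. Protein sequences were not used here.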

Additional observations from a re-analysis of the deposited data

Results flagged for a closer look

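For each value and group of 6 mice, the distance between the most extreme mouse and the next was divided by the group's range and set against Dixon's 95% critical value. This singled out 5 of 34 sets of 6, and chance gives 1.7, since it passes about 1 in 20. The values are not independent, because ratios reuse the counts of single genes. All 5 fell on replicates numbered 2, of either group.

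In WT replicate 2, Rbfox2 had 132 CPM against 92.8 to 97.2 CPM in the other WT mice (gap over range 0.889), and Rbm24 had 204 CPM against 275 to 284 CPM (0.893). The same mouse had an Rbfox2 to Rbfox1 log2 ratio of -1.17 against -1.99 to -1.82 (0.795). In mdx/mTR replicate 2, Mbnl3 had 0.844 CPM against 0.523 to 0.606 CPM (0.743), and the Mbnl2 to Mbnl1 log2 ratio was -0.44 against -0.98 to -0.78 (0.636).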

How the results depend on the processing

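Under all 19 alternatives (12 of which left out 1 mouse), Rbfox2 stayed higher and Celf1 and Mbnl2 stayed lower past the threshold. Of the regulators, 1 rather than 2 was higher with limma-voom and without both WT replicate 2 and mdx/mTR replicate 5, and 2 rather than 4 were lower with library totals alone. Leaving out 1 mouse gave 1 to 2 higher and 2 to 5 lower regulators, with 2 lower without WT replicate 1, WT replicate 6 or mdx/mTR replicate 3, and 1 higher in 8 of the 12 fits (without WT replicate 1, 3, 4, 5 or 6 or mdx/mTR replicate 3, 5 or 6). Mbnl3 ran from -0.064 (without WT replicate 1) to 0.33 (without WT replicate 2), and with library totals alone Rbm24 was 0.068, Srsf7 0.0065 and Clk3 0.012. The Mbnl2 to Mbnl1 difference was 0.00089 without both WT replicate 2 and mdx/mTR replicate 5. Except where an alternative tests fewer mice, the cause was not tested.

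Over all genes, library totals alone gave 5596 higher and 1560 lower in place of 3479 and 3257; leaving out a mouse gave 3163 to 3562 and 2950 to 3254. With library totals alone the other regulators had 11 higher and 2 lower, the hnRNP list 8 and 0, the SR list 9 and 0, and the targets 6 and 4. Of the paralogs, 1 rather than 2 was higher with RLE factors (median of ratios), no filter, DESeq2, a replicate block and without the 2 mice named above; leaving out 1 mouse gave 1 to 2. SR genes lower were 4 with RLE factors, DESeq2 and without those 2 mice and 1 with no filter, and SR genes higher were 0 with no filter; leaving out 1 mouse gave 0 to 2 higher and 0 to 4 lower, with no higher call without WT replicate 3, 4 or 6 or mdx/mTR replicate 5 or 6 and no lower call without WT replicate 3 or 6 or mdx/mTR replicate 2 or 4. The hnRNP list had 1 to 2 higher, with 2 without mdx/mTR replicate 1 or 2.

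The groups share replicate numbers, and no label says that a number marks a shared cage, litter or day. Over all genes tested, correlations of same-numbered deviations ran from -0.155 to 0.354 and 2 of 6 were over 0.1, so the numbers were not taken as pairs; 4 of 12 libraries correlated best with their own number. Some regulators did deviate alike by number: the Rbfox2 to Rbfox1 ratio was lowest in replicate 1 and highest in replicate 2 of both groups, and replicate 2 was farthest below the median for Mbnl1, Rbfox1 and Rbm24 in both. With the block the SE of Rbfox1 was 0.059 in place of 0.096 and that of Celf2 0.041 in place of 0.068. With a replicate block 6420 genes passed in place of 6736, with 3 regulators higher and 4 lower and 0 SR genes higher. For the ratios the paired differences were 0.44 for Celf2 to Celf1 and 0.80 for Rbfox2 to Rbfox1, with an adjusted p of 0.0938 for each from an exact sign-flip test over 6 pairs, whose smallest unadjusted p is 0.0312.

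Mbnl3 rests on 6 to 55 counts per library, and what its spread comes from was not tested. The calls of Mbnl1, Rbfox1 and Ptbp1 changed when single libraries were left out.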
